A study of Mus musculus with 6 samples.

Results

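The cytosolic ribosomal protein genes were examined in mRNA-Seq of the left ventricle (LV). Members were taken by name from the authors' gene table: every gene whose symbol begins with Rpl, Rplp, or Rps followed by a digit, together with Rpsa, without the Rps6k kinases and without symbols that carry the pseudogene mark -ps. This gave 87 genes, 52 named for the large subunit and 35 for the small subunit, of the 12629 genes in that table and the 56923 genes in the count table. The deposited table calls 84 of them protein coding, and Rpl37rt, Rps4l, and Rpl6l are listed there as processed pseudogenes. Rps19bp1 enters through its name only, since it encodes a nucleolar protein that binds Rps19 and is not a structural protein of the ribosome.

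The study modeled Noonan syndrome with cardiac hypertrophy. It compared 3 mice labeled WT (genotype wild-type) with 3 labeled Mutant, which are heterozygous for a knock-in missense allele of Lztr1, Lztr1 R409C/+. All 6 mice were 12 weeks old and on the C57BL/6J background, no treatment is given, and each mouse gave 1 library from its PBS-perfused LV, which the labels call heart. The allele is germ line, so every cell type of the mutant LV carries it, and an RNA level is the sum over all cells of the tissue.

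The ribosome joins a large subunit, which forms peptide bonds, to a small subunit, which reads the mRNA. Each subunit is a core of rRNA with its own set of proteins, nearly all of them made in equal numbers and encoded by separate genes. Their mRNAs are among the most abundant of a growing cell, and many begin with a C followed by an unbroken run of pyrimidines, the 5′ terminal oligopyrimidine (TOP) tract, through which the kinase mTOR and the protein LARP1 control their translation and stability. In heart and skeletal muscle, part of the Rpl3 in the large subunit is replaced by its muscle paralog Rpl3l.

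The start sites of 65 of the 87 genes were in the RefSeq promoter table (build GRCm38.p6), and the 30 bases around each start, 10 before it and 20 from it on, were taken from it. Of 77 windows of these genes, 76 were placed on GRCm39 by an exact match, among them all that are shown. The windows below are shown to set starts with the TOP tract that this family is known for beside starts without it. Capitals mark a C within 5 bases of the annotated start followed by at least 4 bases that are C or T, searched on the transcribed strand only. The first 8 windows hold such a tract and the last 5 do not.
Rpl34 (chr3:130523967-130523996, minus strand): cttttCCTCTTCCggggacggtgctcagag
Rpl35a (chr16:32876842-32876871, plus strand): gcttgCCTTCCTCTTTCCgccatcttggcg
Rpl13a (chr7:44778150-44778179, minus strand): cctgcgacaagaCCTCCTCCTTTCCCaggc
Rplp2 (chr7:141027554-141027583, plus strand): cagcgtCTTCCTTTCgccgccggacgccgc
Rps23 (chr13:91071231-91071260, plus strand): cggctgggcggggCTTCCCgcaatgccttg
Rps18 (chr17:34174620-34174649, minus strand): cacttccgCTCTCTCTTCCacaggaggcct
Rps27 (chr3:90120936-90120965, minus strand): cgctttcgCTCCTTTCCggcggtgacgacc
Rps6 (chr4:86775585-86775614, minus strand): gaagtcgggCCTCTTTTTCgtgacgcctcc
Rpl3l (chr17:24946790-24946819, plus strand): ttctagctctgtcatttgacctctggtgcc
Rpl37 (chr15:5146085-5146114, plus strand): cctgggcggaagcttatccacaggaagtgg
Rps16 (chr7:28050104-28050133, plus strand): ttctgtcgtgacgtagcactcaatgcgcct
Rps19 (chr7:24584007-24584036, plus strand): aatctcgcgagactcgacgcccgacttgtg
Rpsa (chr9:119956822-119956851, plus strand): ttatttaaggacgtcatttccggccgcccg

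By this search, 30 of the 65 genes (46.2%) held a tract at an annotated start, 17 of 39 (43.6%) in the large and 13 of 26 (50.0%) in the small subunit. Among all 27025 symbols of the RefSeq table the share was 21.2%, and in the ribosome biogenesis genes described further on it was 23.3% (27 of 116). A match depends on the annotated start being exact to a few bases, and a window without one says only that these letters are not in it. The 22 genes without a window include Rpl3, Rpl7, Rpl17, Rpl21, Rpl29, Rplp1, Rps4l, Rps14, and Rps27a.

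The mice differed in ways that touch these genes. Total counts were between 66130887 and 72641124 per mouse, and 3 counts corresponded to between 0.0317 and 0.0541 CPM, which are counts scaled to a common library total, here after TMM normalization, well under every member, whose fewest counts in a mouse were 192. Mitochondrially encoded genes took 36.5%, 37.3%, and 13.8% of all counts in WT replicates 1, 2, and 3 and 45.4%, 35.0%, and 29.7% in Mutant replicates 1, 2, and 3. WT replicate 3 and Mutant replicate 1 therefore stood apart from the other 4 mice, at the lowest and the highest share. Lztr1 itself was at 23.5 ± 1.1 CPM in WT and 25.7 ± 2.0 CPM in Mutant LVs (SD, n = 3 each), which does not check the labels because a missense allele need not change the RNA level. Nothing in the labels says how the mice were bred or sampled in relation to each other, so that p-values measure the spread between these 6 mice.

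In the Mutant LVs, the ribosomal protein mRNAs of both subunits were higher on average than in WT, by a median of 0.49 on the log2 scale in the large and 0.56 in the small subunit, against a median of 0.01 over all 17212 genes tested. Without Mutant replicate 1 these medians were 0.37 and 0.33. All 87 genes passed the filter on low counts, and 85 had a higher fitted level in Mutant, 50 of 52 in the large and 35 of 35 in the small subunit, beside 51.4% of all genes tested. The 2 exceptions were paralogs, Rpl3l and Rpl22l1. No single gene passed edgeR's quasi-likelihood test at an adjusted p under 0.05, where 0.0407% of all genes tested did (7 genes), and the smallest adjusted p of a member was 0.215.

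At an unadjusted p under 0.05, 46 of the 87 genes (52.9%) were higher in Mutant, 27 in the large and 19 in the small subunit, and 0 were lower. Over all genes tested, 5.77% were higher and 2.86% lower by the same rule. In 23 members (26.4%), 14 of the large and 9 of the small subunit, every Mutant mouse lay above every WT mouse, and in 0 members every Mutant mouse lay below. The same held upward for 8.3% and downward for 7.23% of all genes tested. The number of genes under an unadjusted p of 0.05 depended on single mice. Without Mutant replicate 1 it was 12 in the large and 7 in the small subunit, and 78 of 87 members were higher, beside 4.82% of all genes tested under that p and higher. It was 41 in the large subunit without Mutant replicate 2, beside 5.19% of all genes tested that were higher by this rule. In the small subunit it was 12 without WT replicate 2, beside 4.80%. edgeR's exact test and DESeq2's Wald test, which weigh the spread between mice differently, called 6 and 7 members at an adjusted p under 0.05, all of them higher, where they called 0.72% and 0.79% of all genes as higher. The 6 called by the exact test were Rpl29, Rpl34, Rpl3, Rpl37, Rps23, and Rps27l, and DESeq2 called these and Rps18.

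**Figure D1:**
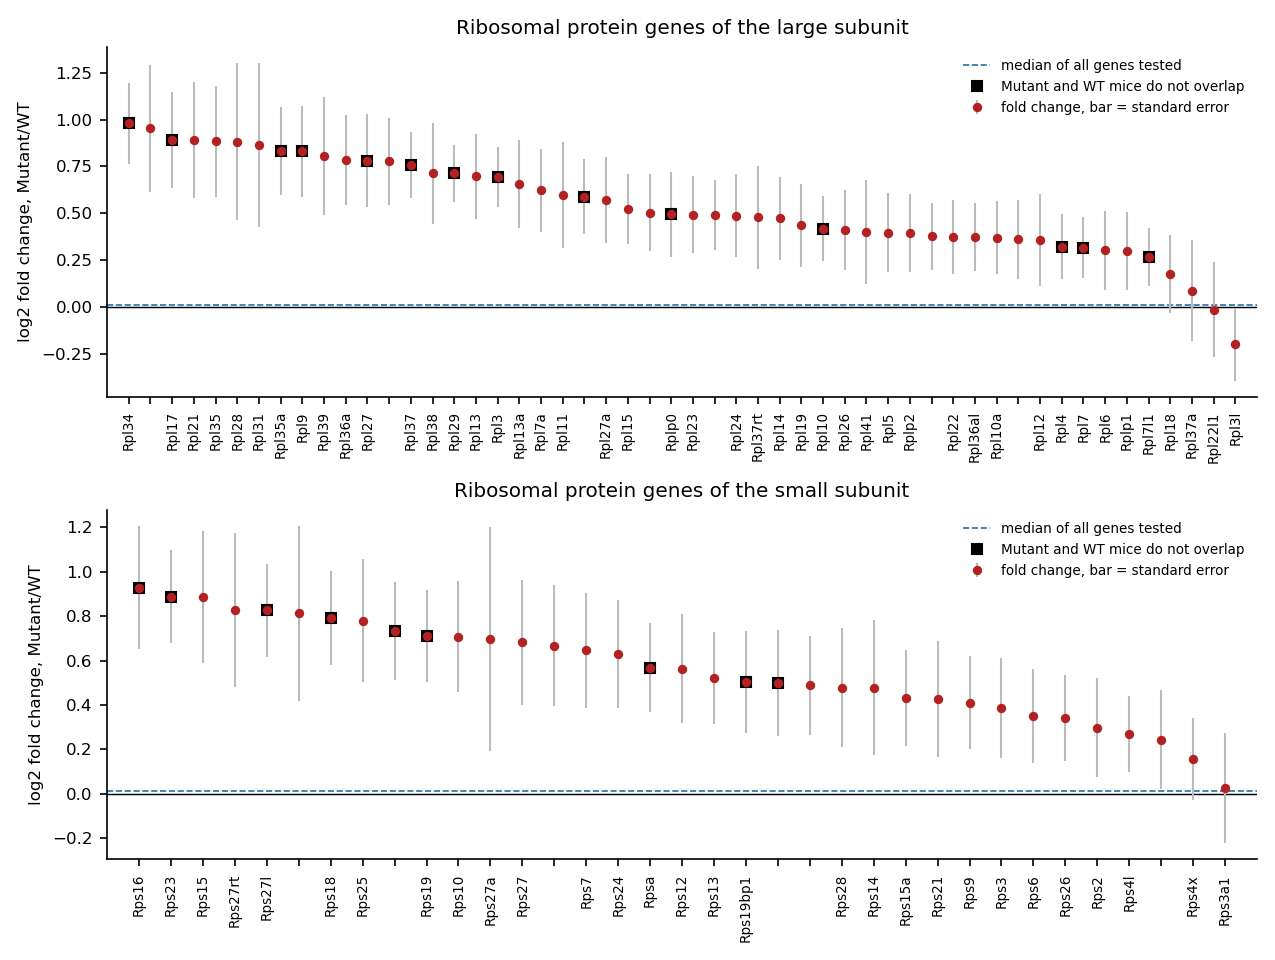
Log2 fold change of Mutant over WT for each of the 52 large and 35 small subunit genes, ordered by size, with the standard error of the quasi-likelihood fit as a bar. Black squares mark the 23 genes in which the 3 Mutant and 3 WT mice did not overlap, and names are given for some of the genes. The points run from 0.98 (Rpl34) down to -0.20 (Rpl3l), and 85 of 87 lie above 0.

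The mice of the Mutant group were unequal. The summed level of the large subunit genes was 4648, 4232, and 4370 CPM in WT replicates 1, 2, and 3 and 7547, 4782, and 6375 CPM in Mutant replicates 1, 2, and 3. The small subunit genes summed to 3522, 3246, and 3655 CPM in WT and to 6449, 3638, and 4542 CPM in Mutant. Mutant replicate 1 was the highest and Mutant replicate 2 close to the WT mice in both subunits. The groups did not overlap in the large subunit, whereas in the small subunit Mutant replicate 2 lay just under WT replicate 3. The Mutant mean was 1.41 times the WT mean for the large and 1.40 times for the small subunit (WT, 4417 ± 212 and 3474 ± 209 CPM; Mutant, 6235 ± 1388 and 4876 ± 1435 CPM; SD, n = 3 each).

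As a share of all counts, the 87 genes took 0.752%, 0.676%, and 1.11% in WT and 1.12%, 0.829%, and 1.20% in Mutant, and WT replicate 3, with the lowest share of mitochondrially encoded counts, lay among the Mutant mice. With mitochondrially encoded genes left out of the total, the shares were 1.18%, 1.08%, and 1.29% in WT and 2.05%, 1.28%, and 1.70% in Mutant, and only Mutant replicate 2 fell within the WT range. Scaled by library size alone, the members' median log2 difference was 0.35 and 81 were higher. Of these, 15 had an unadjusted p under 0.05 (quasi-likelihood), beside 2.25% of all genes tested that were higher by this rule. The median of all genes moved to -0.14, and the members' median stood 0.49 above it (0.49 with TMM). A change of scaling moves most genes by similar amounts, so that this gap could hardly change, and nothing is concluded from it.

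**Figure D2:**
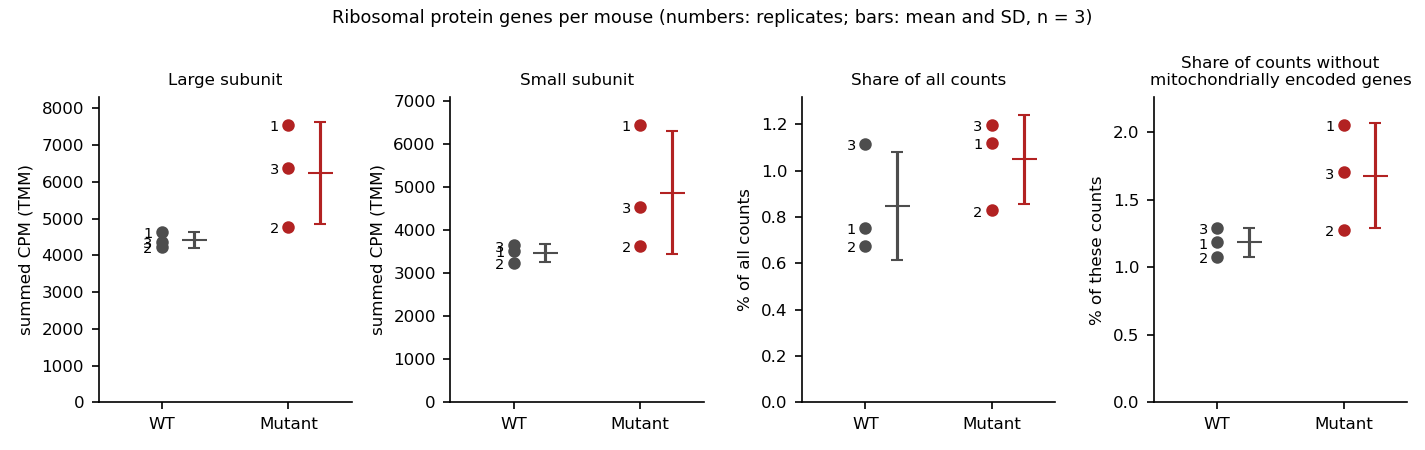
Summed CPM of the large and the small subunit genes, and the share of the 87 genes in all counts and in counts without mitochondrially encoded genes; each point is 1 mouse with its replicate number, and bars are the mean and SD of 3 mice. Mutant replicate 1 is highest in 3 of the 4 panels and Mutant replicate 2 lies within the WT range in all but the large subunit panel, where it is just above.

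The balance between the subunits differed little between the groups. The ratio of summed large to summed small subunit CPM was 1.32, 1.30, and 1.20 in WT and 1.17, 1.31, and 1.40 in Mutant. The ranges overlapped fully, with the lowest and the highest ratio both in Mutant mice. The large subunit held 56.0 ± 1.3% of the members' CPM in WT and 56.4 ± 2.3% in Mutant (SD, n = 3 each).

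Gene by gene, Mutant replicate 1 lay above every WT mouse in 84 of 87 genes, Mutant replicate 3 in 65, and Mutant replicate 2 in 29. Mutant replicate 1 was the highest of all 6 mice in 65 genes and Mutant replicate 3 in 18. The lowest value fell in WT replicate 2 for 38 genes, in WT replicate 3 for 36, and in Mutant replicate 2 for 7, which were Rpl3l, Rpl22l1, Rpl6, Rpl10a, Rpl18, Rplp1, and Rps27a. Without WT replicate 3 and Mutant replicate 1, 84 of 87 genes were still higher in Mutant, with a median of 0.34, and 25 had an unadjusted p under 0.05, beside 5.92% of all genes tested that were higher by this rule.
Leaving out 1 mouse moved the log2 fold change of 24 of the named ribosomal protein genes by more than 1.5 times, and in 18 of them leaving out Mutant replicate 1 did so.

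**Figure D3:**
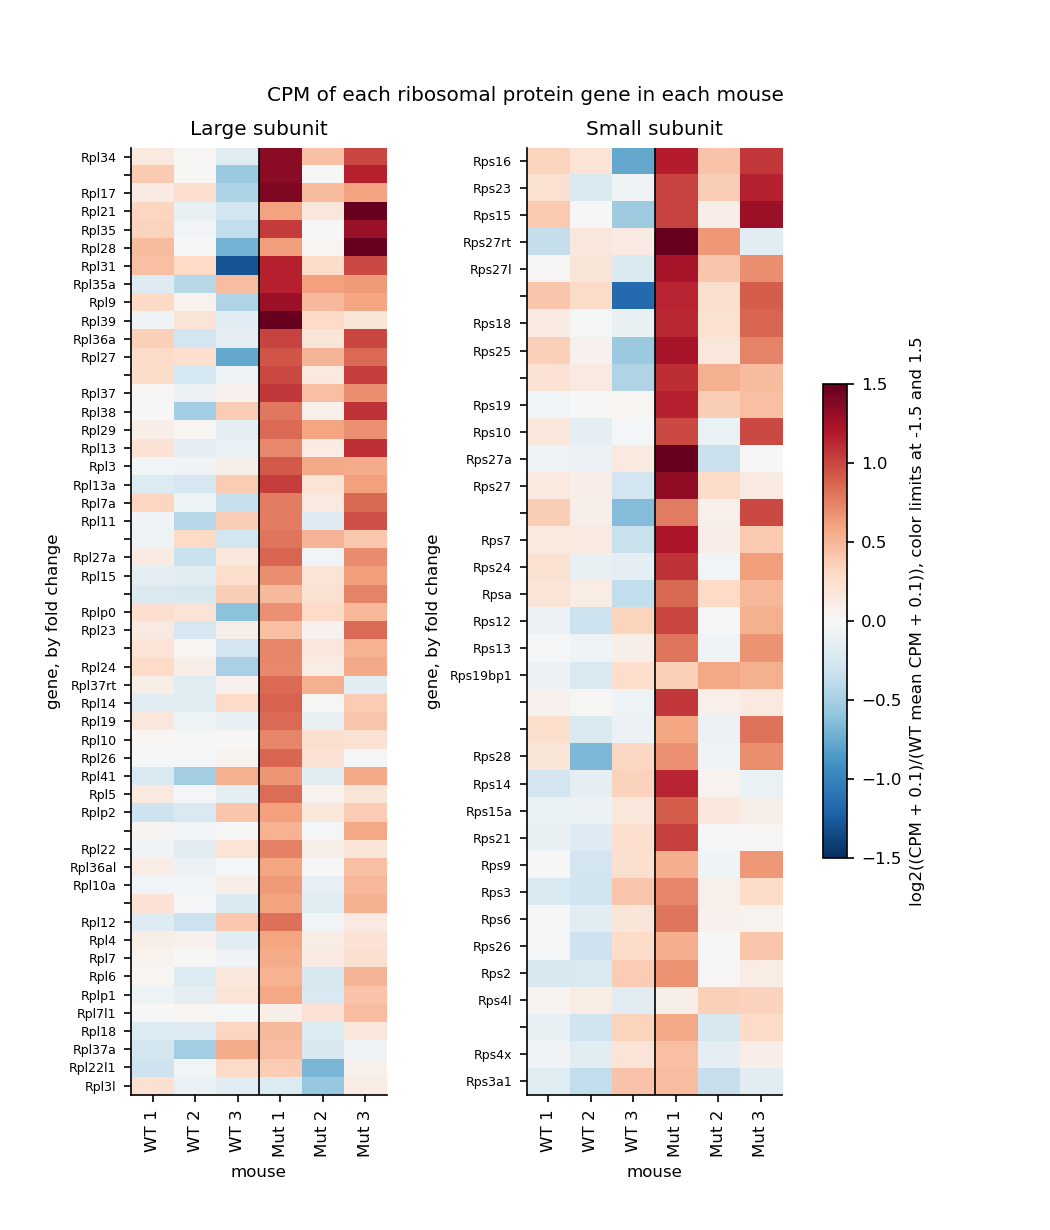
CPM of each gene in each mouse relative to the WT mean, on a log2 scale with 0.1 CPM added, for the large (left) and the small (right) subunit. Genes are ordered by fold change, with names for some of them, red is above and blue below the WT mean. The column of Mutant replicate 1 is red throughout except for Rpl3l, Mutant replicate 3 is red in most rows, and Mutant replicate 2 is pale.

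Among the large subunit genes with the smallest p-values, Rpl29, which sits on the outer face of the subunit, was at 68.9, 65.4, and 58.7 CPM in WT and 116, 96.8, and 104 CPM in Mutant. The groups were well apart, with the smallest standard error of any member (log2 fold change, 0.71 ± 0.15 SE, adjusted p = 0.215, quasi-likelihood). Rpl34 had the largest difference, with 60.4, 55.3, and 47.9 CPM in WT against 140, 74.2, and 109 CPM in Mutant (0.98 ± 0.22 SE, adjusted p = 0.215). Its Mutant mice ranged widely but none reached down to WT. Rpl3, which reaches toward the peptidyl transferase center, had 80.4, 79.2, and 87.8 CPM in WT and 157, 123, and 121 CPM in Mutant (0.69 ± 0.16 SE, adjusted p = 0.215). Rpl37 had 28.8, 26.8, and 29.7 CPM in WT and 59.5, 38.8, and 46.0 CPM in Mutant (0.76 ± 0.18 SE, adjusted p = 0.215). In both genes the WT mice lay close together and the Mutant mice above them.

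Rpl35a, a gene mutated in Diamond-Blackfan anemia, had 29.8, 25.6, and 47.0 CPM in WT and 76.8, 52.5, and 53.3 CPM in Mutant (0.83 ± 0.23 SE, adjusted p = 0.307). Rpl17, which lines the exit tunnel of the nascent chain, had 106, 116, and 70.6 CPM in WT and 258, 136, and 148 CPM in Mutant (0.89 ± 0.26 SE, adjusted p = 0.326). WT replicate 3 was the highest WT mouse for Rpl35a and the lowest for Rpl17, and neither gene overlapped between the groups. Without Mutant replicate 1 the log2 fold change of Rpl17 was 0.54.

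In the small subunit, Rps23, part of the decoding center, had 49.2, 36.1, and 40.3 CPM in WT and 84.7, 54.1, and 93.6 CPM in Mutant (0.89 ± 0.21 SE, adjusted p = 0.215). Rps18 had 73.4, 66.5, and 62.7 CPM in WT and 148, 79.0, and 123 CPM in Mutant (0.79 ± 0.21 SE, adjusted p = 0.275). Both were lowest of the Mutant mice in replicate 2, which still lay above WT. Rps19, the gene most often mutated in Diamond-Blackfan anemia, was nearly constant in WT at 57.8, 59.8, and 60.7 CPM and had 133, 76.9, and 81.5 CPM in Mutant (0.71 ± 0.21 SE, adjusted p = 0.326; 0.41 without Mutant replicate 1).

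Rps16, whose tail reaches the tRNA in the P site, had 61.9, 56.2, and 28.6 CPM in WT and 111, 66.0, and 102 CPM in Mutant (0.93 ± 0.28 SE, adjusted p = 0.361). It was lowest in WT replicate 3, and the groups did not overlap. Rps19bp1 was the least abundant member, with 3.30, 2.98, and 4.24 CPM in WT and 4.51, 5.31, and 5.12 CPM in Mutant, also without overlap (0.50 ± 0.23 SE, adjusted p = 0.574).

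The stalk of the large subunit, which recruits the elongation factors, is built of Rplp0, Rplp1, and Rplp2. Rplp0 had 375, 363, and 206 CPM in WT and 504, 382, and 443 CPM in Mutant (0.49 ± 0.22 SE, adjusted p = 0.573). Its groups did not overlap, by a margin set by WT replicate 1 and Mutant replicate 2. Rplp1, at 163, 156, and 198 CPM in WT and 258, 148, and 232 CPM in Mutant, and Rplp2, at 66.0, 69.6, and 109 CPM in WT and 125, 91.3, and 106 CPM in Mutant, overlapped between the groups (0.30 ± 0.21 SE and 0.39 ± 0.21 SE). Rplp0 fell to 0.26 without WT replicate 3, Rplp1 ranged from 0.13 without Mutant replicate 1 to 0.50 without Mutant replicate 2, and Rplp2 from 0.26 without WT replicate 1 to 0.66 without WT replicate 3. The log2 differences of the 3 stalk genes lay between 0.30 and 0.49, at or under that of the median member (0.50).

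Rpl5 and Rpl11 form a particle with the small rRNA of the large subunit and can bind the p53 ligase MDM2. Rpl5 had 179, 159, and 145 CPM in WT and 287, 167, and 183 CPM in Mutant (0.40 ± 0.21 SE). Rpl11 had 52.0, 40.1, and 69.3 CPM in WT and 91.3, 47.2, and 106 CPM in Mutant (0.60 ± 0.28 SE). In both, Mutant replicate 2 lay within the WT range, and their adjusted p-values were 0.628 and 0.595 in the quasi-likelihood test. The log2 fold change of Rpl5 was 0.11 without Mutant replicate 1, and that of Rpl11 was 0.36 without Mutant replicate 3.

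Rps6, the target of the S6 kinases, had 170, 155, and 197 CPM in WT and 303, 183, and 181 CPM in Mutant (0.35 ± 0.21 SE, adjusted p = 0.680), and only Mutant replicate 1 lay above WT (0.055 without it). Rpsa, also known as the laminin receptor, had 253, 240, and 171 CPM in WT and 401, 271, and 312 CPM in Mutant without overlap (0.57 ± 0.20 SE, adjusted p = 0.470). Rps27a, which is made as a fusion with ubiquitin, was the member with the largest standard error. It had 37.1, 36.6, and 43.1 CPM in WT and 120, 31.0, and 38.6 CPM in Mutant (0.70 ± 0.50 SE, adjusted p = 0.757). The difference rested on Mutant replicate 1, and without that mouse the log2 fold change was -0.17.

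Levels were compared between genes as CPM per kb of coding length of the GENCODE vM39 canonical transcript, since annotated 3′ ends of several members are long. In WT, the highest of the large subunit were Rpl41 at 616 ± 241 (over an annotated coding length of 138 bases, on which this value depends), Rplp1 at 505 ± 66, Rplp0 at 331 ± 99, and Rpl26 at 308 ± 10 CPM per kb (SD, n = 3). The lowest were Rpl7l1 at 36.3 ± 0.7 and Rpl21 at 27.7 ± 6.3 CPM per kb. The spreads of Rplp0 and Rpl26 overlapped. The known Rpl41 protein is shorter than that annotated length, and a shorter length would raise its value. The spreads of Rpl41 and Rplp1 overlapped. In the small subunit, Rps14 at 440 ± 103, Rps2 at 411 ± 106, Rps3a1 at 358 ± 110, and Rps24 at 339 ± 49 CPM per kb led and could not be put in order beyond their spread. Rps27 was next at 333 ± 53 CPM per kb, and its spread overlapped those of Rps24 and Rps3a1. Rps4l at 14.8 ± 1.5 and Rps19bp1 at 8.18 ± 1.53 CPM per kb were lowest.

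Of the leading small subunit genes, Rps3a1 and Rps2 differed by less than the spread between mice. Rps3a1 had 249, 219, and 382 CPM in WT and 390, 223, and 253 CPM in Mutant (0.03 ± 0.25 SE). Rps2 had 307, 308, and 469 CPM in WT and 575, 367, and 392 CPM in Mutant (0.30 ± 0.22 SE). In both, WT replicate 3 was above Mutant replicates 2 and 3. Rps2 ranged from 0.061 without Mutant replicate 1 to 0.53 without WT replicate 3. Rps14 had 164, 181, and 252 CPM in WT and 440, 206, and 186 CPM in Mutant (0.48 ± 0.30 SE), with the difference resting on Mutant replicate 1 (-0.03 without it), and Rps24 had 172, 136, and 134 CPM in WT and 312, 143, and 228 CPM in Mutant (0.63 ± 0.24 SE; 0.33 without Mutant replicate 1).

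In the large subunit, Rpl41, the shortest ribosomal protein, had 72.8, 59.6, and 123 CPM in WT and 134, 76.0, and 127 CPM in Mutant (0.40 ± 0.28 SE), and its log2 fold change ranged from 0.19 without WT replicate 2 to 0.76 without WT replicate 3. Rpl26 had 132, 131, and 139 CPM in WT and 246, 156, and 133 CPM in Mutant (0.41 ± 0.21 SE), and Mutant replicate 3 lay within WT. Without Mutant replicate 1 its log2 fold change was 0.097. Rpl21, among the least abundant, had 16.7, 12.3, and 10.9 CPM in WT and 20.2, 14.9, and 38.7 CPM in Mutant (0.89 ± 0.31 SE). Mutant replicate 3 stood far above the other mice, and Mutant replicate 2 lay within the WT range. Without Mutant replicate 3 the log2 fold change was 0.40.

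Across the 87 genes, the log2 fold change fell with the level in WT (Spearman's rho, -0.42, across genes that share the same 6 libraries) and with coding length in the 85 genes that have one (-0.31). The level in WT is also the denominator of the fold change, so that spread between the WT mice alone pushes the correlation with level downward. Its value without a difference between the groups was not computed, and nothing is concluded from it. The members are short, with a median coding length of 456 bases against 1392 bases over 13966 protein-coding genes tested. When the counts were corrected for the length of the transcript, 82 of 87 members were higher, with a median of 0.35, and 28 had an unadjusted p under 0.05, 17 of the large and 11 of the small subunit, beside 4.29% of all genes tested that were higher by this rule. The median of all genes moved to -0.045, and the members' median stood 0.40 above it. A correction for coding length gave 81 higher, a median of 0.35, and 26 under that p, beside 4.51% of all genes tested and with the median of all genes at -0.036. The members lie on 19 chromosomes.

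The log2 fold changes of genes with a TOP tract in the RefSeq window had a median of 0.63 and ranged from -0.01 to 0.98 (n = 30). Those without one had a median of 0.49 and ranged from -0.20 to 0.93 (n = 35). In the large subunit the medians were 0.62 with and 0.41 without a tract, and in the small subunit 0.63 and 0.56. The ranges overlapped, and the difference was not tested. Among tested genes that are not members, the medians were -0.0023 with (n = 2732) and -0.0058 without (n = 8780) a tract.

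Among paralogs, only the balance of Rpl3 and its muscle paralog Rpl3l did not overlap between the genotypes. Rpl3l (ENSMUSG00000002500.16, GRCm39 chr17:24946751-24955119, plus strand) had 129, 102, and 98.3 CPM in WT and 94.9, 73.6, and 118 CPM in Mutant, which overlapped (-0.20 ± 0.19 SE, adjusted p = 0.818, from -0.38 without Mutant replicate 3 to -0.046 without Mutant replicate 2), while Rpl3 (ENSMUSG00000060036.15, chr15:79961825-79976069, minus strand) was higher in every Mutant mouse, as given above. The ratio of Rpl3l to Rpl3 counts was 1.60, 1.29, and 1.12 in WT and 0.606, 0.601, and 0.977 in Mutant. Every WT mouse had more Rpl3l than Rpl3, and every Mutant mouse had less. The coding lengths are similar, 1221 and 1209 bases, so that Rpl3l made up 56.9 ± 4.4% of the 2 genes' counts in WT and 41.6 ± 6.8% in Mutant (SD, n = 3 each). The log2 ratio differed by -0.90 between Mutant and WT, with an exact permutation p of 0.1, the smallest that 3 against 3 mice can give, and 0.4 after adjustment over the 6 pairs tested.

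The pair is distinct in sequence, which bears on how its reads were assigned. The coding sequences are identical at 896 of 1205 aligned bases (74.4%), and the first 60 coding bases, shown with differing bases in capitals, differ at 13 positions.
Rpl3l: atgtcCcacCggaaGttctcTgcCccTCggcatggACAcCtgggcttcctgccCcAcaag
Rpl3: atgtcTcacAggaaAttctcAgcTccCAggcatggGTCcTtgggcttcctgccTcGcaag

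The other pairs overlapped between the groups in their ratio. Rpl36al, an intron-poor copy of Rpl36a, stood to Rpl36a as 0.924, 1.25, and 1.19 in WT and 0.816, 0.967, and 0.745 in Mutant, a difference of -0.41 on the log2 scale (exact permutation p = 0.2, adjusted 0.4). Rpl22l1 stood to Rpl22 as 0.170, 0.221, and 0.216 in WT and 0.157, 0.118, and 0.188 in Mutant (-0.41; exact permutation p = 0.2, adjusted 0.4). In both pairs 2 Mutant mice lay below every WT mouse and the other did not. The log2 difference of Rpl22l1/Rpl22 ranged from -0.56 without Mutant replicate 3 to -0.23 without Mutant replicate 2. For Rps27l and Rps27 the difference was 0.20 (exact permutation p = 0.4), for Rps4l and Rps4x 0.12 (exact permutation p = 0.8), and for Rpl7l1 and Rpl7 -0.05 (exact permutation p = 1). That of Rps27l and Rps27 ranged from 0.021 without Mutant replicate 3 to 0.35 without Mutant replicate 1.

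**Figure D4:**
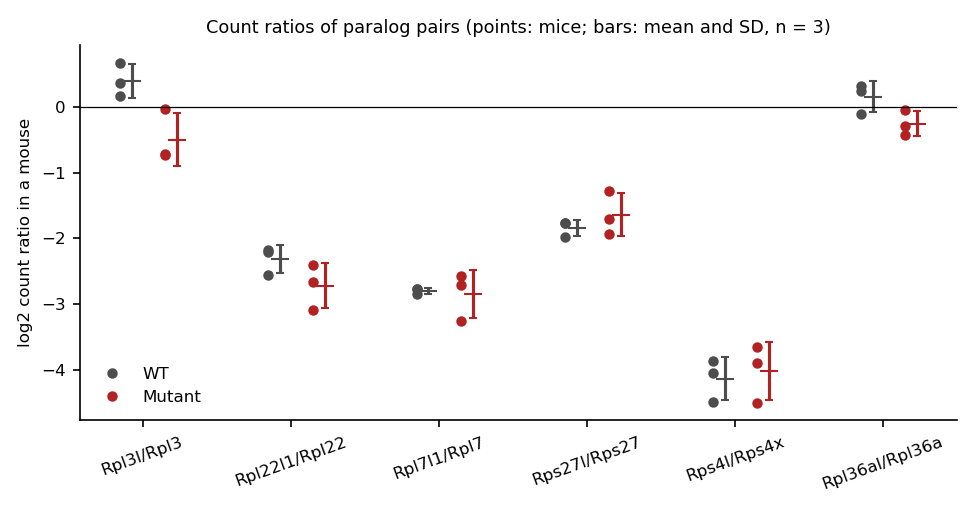
Log2 ratio of the counts of each paralog to its partner in each mouse (points), with the mean and SD of 3 mice, for 6 pairs, where gray is WT and red is Mutant. The groups are apart only for Rpl3l/Rpl3, whose WT mice lie above 0 and Mutant mice below.

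The members of these pairs were unlike in their own levels. Rps27l, which p53 can induce, had 23.6, 26.4, and 20.1 CPM in WT and 55.1, 31.2, and 38.1 CPM in Mutant without overlap (0.83 ± 0.21 SE, adjusted p = 0.268). Its partner Rps27 had 93.2, 90.2, and 68.6 CPM in WT and 211, 102, and 92.4 CPM in Mutant (0.68 ± 0.28 SE, and 0.20 without Mutant replicate 1). Rpl22l1 had 11.8, 14.1, and 17.9 CPM in WT and 19.1, 9.01, and 15.4 CPM in Mutant (-0.01 ± 0.26 SE), and Rpl22 had 69.2, 63.9, and 82.7 CPM in WT and 121, 76.5, and 81.9 CPM in Mutant (0.37 ± 0.20 SE, and 0.13 without Mutant replicate 1). For Rpl22, Mutant replicates 2 and 3 lay within the WT range, and for Rpl22l1 the Mutant mice spread to both sides of it.

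Rpl36a had 21.5, 13.7, and 15.1 CPM in WT and 34.0, 19.0, and 33.6 CPM in Mutant (0.78 ± 0.24 SE), and Rpl36al had 19.8, 17.2, and 17.9 CPM in WT and 27.8, 18.4, and 25.03 CPM in Mutant (0.37 ± 0.18 SE, and 0.24 without Mutant replicate 1). Rpl7 had 194, 186, and 180 CPM in WT and 274, 203, and 221 CPM in Mutant (0.32 ± 0.16 SE, and 0.17 without Mutant replicate 1), and Rpl7l1 had 26.8, 27.3, and 26.3 CPM in WT and 28.6, 31.1, and 37.1 CPM in Mutant (0.27 ± 0.15 SE, and 0.16 without Mutant replicate 3). Rpl7 and Rpl7l1 did not overlap between the groups, and Mutant replicate 1 was the highest mouse for Rpl7 and the lowest Mutant mouse for Rpl7l1. Rps4x had 198, 183, and 234 CPM in WT and 280, 187, and 220 CPM in Mutant (0.16 ± 0.18 SE), and Rps4l had 12.0, 12.5, and 10.3 CPM in WT and 12.3, 14.9, and 14.8 CPM in Mutant (0.27 ± 0.17 SE).

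Retrocopies share reads with their parents, and their counts are uncertain. The transcript of Rps27rt is identical to Rps27 over all 345 aligned bases, that of Rpl37rt to Rpl37 over 293 of 294, and that of Rpl6l to Rpl6 over 860 of 871. The 4 members with a single exon were all higher in Mutant, with a median of 0.53, and the 83 with several exons had a median of 0.50, with 81 higher. Of 45 tested genes that the table names as pseudogenes of a ribosomal protein, and which are not members, 44 were higher with a median of 0.59. Their summed level was 342, 302, and 309 CPM in WT and 605, 359, and 440 CPM in Mutant, in the order of mice seen for the members.

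The genes around the ribosomal proteins were read from lists. Of the list of 3 ribosomal or ribosome-bound proteins under other names, which holds Fau and Rack1, 3 of 3 were higher in Mutant. Fau, which is made as a fusion with a ubiquitin-like protein, had 55.9, 53.0, and 57.4 CPM in WT and 118, 78.3, and 84.1 CPM in Mutant (0.75 ± 0.18 SE, adjusted p = 0.215). Rack1, a scaffold on the small subunit, had 190, 182, and 159 CPM in WT and 323, 204, and 231 CPM in Mutant (0.51 ± 0.19 SE, adjusted p = 0.495, and 0.29 without Mutant replicate 1). Neither overlapped between the groups, and Mutant replicate 1 was again highest.

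Of 27 other genes whose RNAs are known to carry a TOP tract, most of them translation factors and 2 of them, Gas5 and Snhg1, non-coding, 18 were higher and 9 lower, with a median of 0.12, and 1 (3.7%) was higher at an unadjusted p under 0.05, against 5.77% of all genes tested. That gene was the elongation factor Eef1a1, at 546, 515, and 597 CPM in WT and 1051, 643, and 723 CPM in Mutant without overlap (0.54 ± 0.20 SE, adjusted p = 0.495, and 0.30 without Mutant replicate 1). Without Mutant replicate 1 the median of the 27 was -0.0095, with 12 higher and 15 lower, beside -0.00014 over all genes. It was 0.059 without WT replicate 2, 0.011 with the gene length correction, and -0.013 with library size only, where the medians of all genes were 0.0083, -0.045, and -0.14.

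Ribosome biogenesis genes, which process rRNA and assemble the subunits, differed in the other direction. Of 140 tested, 107 were lower and 33 higher, with a median of -0.12, and 12 were lower and 0 higher at an unadjusted p under 0.05, where 2.86% of all genes tested were lower. In 25 of the 140 every Mutant mouse lay below every WT mouse, beside 7.23% of all genes tested. None passed the adjusted threshold. Without WT replicate 3 and Mutant replicate 1, 87 were lower and 53 higher, with a median of -0.069. With library size only, 126 were lower and 14 higher, with a median of -0.29 where that of all genes was -0.14. Utp20, a factor of early small subunit processing, had 20.1, 22.2, and 23.8 CPM in WT and 12.4, 16.2, and 14.4 CPM in Mutant (-0.62 ± 0.17 SE, adjusted p = 0.284). Ltv1, a late small subunit assembly factor, had 16.5, 13.9, and 17.0 CPM in WT and 11.1, 11.6, and 11.3 CPM in Mutant (-0.48 ± 0.16 SE, adjusted p = 0.454). Taf1a, of the RNA polymerase I initiation complex, had 15.6, 14.8, and 16.7 CPM in WT and 11.7, 11.1, and 12.8 CPM in Mutant (-0.40 ± 0.16 SE, adjusted p = 0.525). In all 3 genes each Mutant mouse lay below each WT mouse.

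Of 20 regulators of TOP mRNAs and S6 kinases, 16 were lower and 4 higher, with a median of -0.15, and without WT replicate 3 alone 12 were lower and 8 higher. With library size only the median was -0.35. Eif4ebp1, a repressor of translation that mTOR inactivates, was the only one (5% of the list, beside 5.77% of all genes tested higher) with an unadjusted p under 0.05, at 18.7, 16.4, and 13.0 CPM in WT and 19.3, 22.1, and 29.2 CPM in Mutant (0.55 ± 0.20 SE, adjusted p = 0.475). Larp1b had 48.6, 44.8, and 49.4 CPM in WT and 36.2, 38.7, and 41.4 CPM in Mutant (-0.30 ± 0.14 SE, adjusted p = 0.599). Rps6ka2, a kinase that ERK activates, had 63.1, 64.9, and 55.8 CPM in WT and 50.4, 38.4, and 56.7 CPM in Mutant (-0.34 ± 0.17 SE, adjusted p = 0.618, and -0.20 without Mutant replicate 2). Larp1b did not overlap between the groups, whereas Rps6ka2 did.

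**Figure D5:**
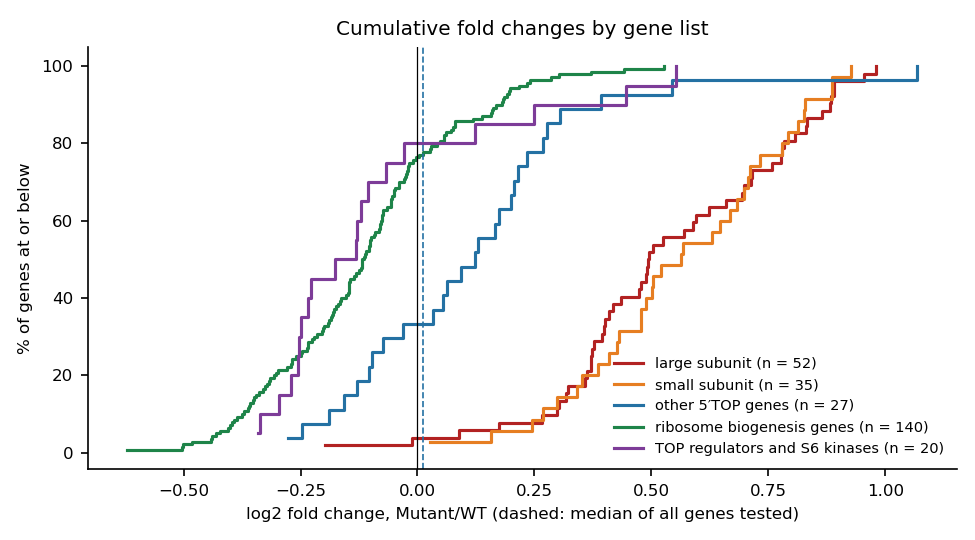
Cumulative share of genes by log2 fold change of Mutant over WT for the large and the small subunit, other TOP RNAs, ribosome biogenesis genes, and TOP regulators with S6 kinases; the dashed line is the median of all genes tested (0.01). The curves of both subunits run together to the right, with medians of 0.49 and 0.56, and the medians of the biogenesis genes and the regulators lie left of 0, at -0.12 and -0.15, with 33 of 140 and 4 of 20 genes above 0.

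Markers of leukocytes and red cells were also higher in Mutant. In all, 10 of 10 macrophage and other leukocyte markers were higher in Mutant, 9 of them at an unadjusted p under 0.05, where 5.77% of all genes tested were higher, and 0 at an adjusted p. They summed to 189, 196, and 225 CPM in WT and 414, 301, and 320 CPM in Mutant, highest in replicate 1, and Cd3e was at 0 in WT replicates 2 and 3. The 5 red cell markers were 5 of 5 higher, 3 at an unadjusted p under 0.05, and summed to between 579 and 1479 CPM in WT and between 1042 and 2625 CPM in Mutant, also highest in replicate 1. The 6 cardiomyocyte markers, by which the tissue is heart muscle, summed to between 30987 and 34731 CPM in WT and to 20567, 28081, and 35005 CPM in Mutant replicates 1, 2, and 3, with 2 of 6 higher. Of the 4 atrial markers, Nppa, which the stressed ventricle also makes, had 37.7, 49.9, and 76.0 CPM in WT and 52.9, 107, and 76.3 CPM in Mutant, with overlap (0.53, unadjusted p = 0.090, quasi-likelihood). Myl4 was between 0.357 and 0.570 CPM in all 6 mice. Myl7 and Sln were at 0 in every WT mouse and reached at most 0.262 and 0.0552 CPM in Mutant. Fibroblast markers summed to between 528 and 618 CPM in WT and between 588 and 654 CPM in Mutant, endothelial markers to between 460 and 630 CPM and between 373 and 656 CPM, and those of smooth muscle and pericytes to between 635 and 745 CPM and between 572 and 721 CPM, all with overlap. Of the fibroblast markers 4 of 5 were higher, Lum (0.61) and Tcf21 (0.54) at an unadjusted p under 0.05. Of the endothelial markers 2 of 4 were higher, and of those of smooth muscle and pericytes 1 of 5, with Myh11 (-0.71) and Tagln (-0.65) lower at an unadjusted p under 0.05. The part of these cells, and of the mitochondrially encoded share, in the levels of the ribosomal protein genes was not tested, and in bulk tissue a different number of cells and a different RNA level per cell cannot be told apart.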

How the data were processed

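mRNA-Seq was performed on the LVs of 3 WT and 3 Lztr1 R409C/+ mice. Per the study's methods, reads went through Trim Galore, HISAT2 alignment to GRCm39, removal of rRNA, and StringTie, and the authors deposited raw counts per gene. How counts were taken from StringTie, the annotation release, and any use of strand are not given in the sources used here. The authors also deposited an edgeR table whose log2 columns (fold change, average CPM) and p-value columns (raw and adjusted) were not used, only its gene names and types.

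Counts of all 56923 genes entered edgeR 4.0.16 (R 4.3.3), where filterByExpr left 17212 genes. TMM normalization and the robust quasi-likelihood test followed, two-sided, with Benjamini-Hochberg adjustment over all genes tested at 0.05. Members and lists were chosen with earlier results of these data known. Named genes are, per subunit, the 6 higher and 3 lower members with the smallest p and the 4 highest and 2 lowest by length-scaled WT level, the paralogs, the stalk, Rpl5, Rpl11, Rps6, Rpsa, Rps27a, and Rps19bp1, and the 3 genes with the smallest p of each list. Only 2 members were lower, both in the large subunit. Some genes under this rule are not reported here, and other genes were named after their values were seen. Paralog ratios had 0.5 counts added and an exact permutation test. Positions and coding lengths are from GENCODE vM39 on GRCm39 and start windows from RefSeq, whose start with a tract was taken where a gene has several. The quasi-likelihood test was also run on simulated counts, and the outcome is not reported here. Alternatives were other normalizations, filters, and tests (DESeq2 1.42.0, edgeR's exact test), length corrections, a replicate block, and the omission of mice. Total counts, between 66130887 and 72641124 per mouse, limit precision less than the spread between mice, and floors cover counting error only.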

Additional observations from a re-analysis of the deposited data

How the results depend on the processing

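Calls at an adjusted p under 0.05 were 0 in both subunits under every normalization, filter, length correction, and omission of a mouse that was run. DESeq2's Wald test called 4 large and 3 small subunit genes, and edgeR's exact test 4 and 2. At an unadjusted p under 0.05, in place of the adjusted threshold, 27 and 19 passed. That number, beside 5.77% of all genes tested that were higher by this rule, fell to 9 large and 6 small subunit genes with library size only (2.25% of all genes), 17 and 11 with the gene length correction (4.29%), 17 and 9 with the coding length correction (4.51%), and 15 and 10 without WT replicate 3 and Mutant replicate 1 (5.92%). The last 2 alternatives were chosen after the data were seen. With each mouse left out in turn, it ranged from 12 to 41 in the large and from 7 to 25 in the small subunit. The share of all genes tested that were higher by this rule then lay between 4.80% and 5.72%. The calls at an adjusted p stayed at 0, and the median log2 fold changes ranged from 0.37 to 0.64 and from 0.33 to 0.73. The log2 difference of Rpl3l/Rpl3 ranged from -1.13 to -0.76.

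Whether the replicate numbers pair the mice is not given in the labels. The correlations of same-numbered mice were -0.0013, 0.022, and -0.057, and those of differently numbered mice lay between -0.050 and 0.048. These values cannot show whether mice were bred or sampled together. With the replicate block, the subunit medians were 0.51 and 0.52, 46 members had an unadjusted p under 0.05 (5.25% of all genes were higher by this rule), and the paired difference of Rpl3l/Rpl3 had an exact sign-flip p of 0.25, the smallest it can give.

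Without Mutant replicate 1, 78 members were higher and 9 lower, in place of 85 and 2. Signs under each alternative were followed for the named genes and the paralog ratios, and these turned. Rpl22l1 was at 0.036 with the upper quartile and ranged from -0.27 to 0.23 with each mouse left out. Rps3a1 was at -0.25 with library size only and at -0.17 and -0.11 with the gene and coding length corrections, and ranged from -0.26 to 0.30. Rps4x was at -0.053 with library size only and -0.030 with the gene length correction, and ranged from -0.020 to 0.28. Rps14 ranged from -0.030 to 0.70 and Rps27a from -0.17 to 1.02, both lowest without Mutant replicate 1, and Rps27a was at -0.082 without WT replicate 3 and Mutant replicate 1. The log2 difference of Rpl7l1/Rpl7 ranged from -0.18 to 0.16, and that of Rps4l/Rps4x from -0.061 to 0.37. The median of all genes moved to -0.14 with library size only, -0.045 and -0.036 with the gene and coding length corrections, and 0.055 with the upper quartile. Against it, Rps4x still lay above and Rpl22l1 below in the scalings and length corrections named for each, and Rps3a1 lay below. With single mice left out this did not always hold. Without Mutant replicate 1, Rps4x was at -0.020 and the median of all genes at -0.00014. Without Mutant replicate 2, Rpl22l1 was at 0.23 and the median of all genes at 0.010. For the scalings and length corrections the cause was not tested.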
